A study of Homo sapiens with 6 samples.

Results

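The activin subunit gene INHBA and 9 genes of transforming growth factor beta (TGF-beta) signalling were followed in MV4;11 cells treated with cortistatin A. MV4;11 is a line of human acute myeloid leukaemia cells in which MLL is fused to AF4. Cortistatin A, a steroidal natural product, blocks the Mediator kinases CDK8 and CDK19. On 3 arrays the cells had stood for 3 h in the solvent DMSO, on the other 3 in cortistatin A at 25 nM, and both groups came from the same line and medium. The design holds 1 cell line, 1 dose and 1 time, and the labels describe wells plated in triplicate without saying that they came from separate cultures, so the spread behind the p-values may be technical only. The 10 genes are INHBA, LDLRAD4, TGFB1, TGFBR1, TGFBR2, SMAD3, SMAD7, SKI, SKIL and PMEPA1, of 19775 genes measured. They were chosen by name with the difference between cortistatin A and DMSO arrays already known, so that difference is given for them as a description and not as a test. All 10 were measured, with 30 probe sets that name a single gene. A gene is represented by its brightest probe set (by mean signal of the 6 arrays), and the others are shown beside it.

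TGF-beta and the activins are secreted dimers that bind a type II receptor kinase, which then activates a type I receptor kinase. The type I receptor phosphorylates SMAD2 and SMAD3, which join SMAD4 and act on genes in the nucleus, and several genes switched on in this way encode inhibitors that close a negative feedback loop. CDK8 is one of the nuclear kinases known to phosphorylate the linker of receptor-activated SMADs. In blood progenitors TGF-beta is known for restraining proliferation, and activin A takes part in erythroid and monocyte differentiation.

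Of the 10 genes, 2 were higher with cortistatin A in the comparison over all genes and 0 were lower. These were INHBA, 1.96-fold higher, and LDLRAD4, 1.6-fold higher. The other 8 lay between -0.19 and 0.36 on the log2 scale and were not called. A gene was called at a Benjamini-Hochberg adjusted p under 0.05 in limma, a linear model with variances shared over genes, which called 115 of 19775 genes (0.582%), 88 of them higher (0.445%) and 27 lower (0.137%). The groups did not overlap for 5 of the 10 genes, all 5 higher with the drug, nor for 19.4% of all genes (10.2% higher and 9.22% lower, and 25.0% of the genes brighter than the median probe set). The median difference of the 10 genes was 0.19, against 0.0065 over all genes. All differences are cortistatin A minus DMSO in log2 RMA signal, and errors are limma standard errors (SE) unless SD is written.

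The annotated starts of both called genes are shown first, with SMAD7 as the textbook feedback target of SMADs. Each is a RefSeq window on GRCh38.p14 of 250 bases before and 50 bases after an annotated transcript start, written 5′ to 3′ on the gene's strand. INHBA has 1 window, at chr7:41703041-41703340 (minus strand). LDLRAD4 has 9, of which the one listed first, at chr18:13217722-13218021, and the most downstream one, at chr18:13641508-13641807, are given (both plus strand). The first of 3 SMAD7 windows lies at chr18:48950916-48951215 (minus strand). Capitals mark CAGAC on either strand, the core that SMAD proteins bind, and TATAAA on the printed strand.
INHBA: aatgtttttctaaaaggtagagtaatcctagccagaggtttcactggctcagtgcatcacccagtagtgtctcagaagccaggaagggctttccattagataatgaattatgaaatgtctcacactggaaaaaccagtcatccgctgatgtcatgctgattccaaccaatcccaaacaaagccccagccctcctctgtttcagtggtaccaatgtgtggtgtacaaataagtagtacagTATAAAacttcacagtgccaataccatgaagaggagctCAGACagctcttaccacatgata
LDLRAD4, first listed start: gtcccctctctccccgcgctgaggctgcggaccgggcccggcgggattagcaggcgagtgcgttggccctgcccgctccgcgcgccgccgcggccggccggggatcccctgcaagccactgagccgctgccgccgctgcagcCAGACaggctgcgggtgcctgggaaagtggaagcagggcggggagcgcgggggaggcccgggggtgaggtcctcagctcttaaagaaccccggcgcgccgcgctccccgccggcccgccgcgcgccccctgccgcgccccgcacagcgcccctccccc
LDLRAD4, most downstream start: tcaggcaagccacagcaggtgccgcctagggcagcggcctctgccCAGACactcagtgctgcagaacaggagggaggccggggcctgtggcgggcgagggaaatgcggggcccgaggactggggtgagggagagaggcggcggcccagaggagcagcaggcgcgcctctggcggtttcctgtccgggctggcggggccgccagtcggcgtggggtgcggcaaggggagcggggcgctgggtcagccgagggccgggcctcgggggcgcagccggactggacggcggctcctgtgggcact
SMAD7, first listed start: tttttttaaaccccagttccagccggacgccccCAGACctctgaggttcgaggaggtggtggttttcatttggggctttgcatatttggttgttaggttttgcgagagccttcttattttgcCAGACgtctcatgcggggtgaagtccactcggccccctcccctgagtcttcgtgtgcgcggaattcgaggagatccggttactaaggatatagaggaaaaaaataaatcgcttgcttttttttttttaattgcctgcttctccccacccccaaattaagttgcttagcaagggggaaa

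The INHBA window had a GC content of 43.3%, lower than most windows (17.4% of all 35116 windows had less), with TATAAA 11 bases before the start and 1 CAGAC after it. TATAAA was present in 7.33% of all windows. Both printed LDLRAD4 windows were GC-rich, at 79% for the first and 75% for the most downstream one, against a median of 58.7%, and TATAAA was in neither of them. The SMAD core CAGAC was found in 6 of the 9 LDLRAD4 windows and in 20 of the 34 windows of the 9 genes that have one in the table, against 45.3% of all windows. Of the other motifs searched on both strands, TGANTCA (the AP-1 motif) was in 2 of the 34 windows against 7.71% of all, and TGACGTCA (the cyclic AMP response element) in 2 against 1.85%. Neither of these motifs was in the INHBA window or in an LDLRAD4 window. A match describes letters only, some windows of a gene overlap, and the arrays do not tell which start was in use.

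INHBA encodes the beta A chain, whose dimer is activin A and which pairs with the alpha chain as inhibin. Its main probe set (210511_s_at) read 4.26, 4.08 and 4.19 in DMSO replicates 1 to 3 and 5.0, 5.29 and 5.14 in the cortistatin A replicates. All 3 treated arrays lay above all 3 controls, with 0.74 between the nearest arrays of the groups. The difference was 0.97 ± 0.089 (n = 3 per group), the 4th highest of all 19775 genes. The level in DMSO was low, 4.18 ± 0.090 (SD), not far above the median of all probe sets at 3.74, and RMA compresses differences near that range.

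A second INHBA probe set (227140_at) had nearly the same mean over the arrays, 4.64 against 4.66, so which of them stands for the gene rests on a small gap. It read 3.89, 4.19 and 3.70 in DMSO and 5.30, 5.23 and 5.56 with cortistatin A. Again no treated array reached down to a control, and the difference was larger, 1.43 ± 0.14 or 2.7-fold. Both were also called when every one of the 54613 probe sets was tested as such, where limma called 28 (0.0513%). The remaining probe set (204926_at) stayed between 1.43 and 1.78 on all 6 arrays, far below the median probe set, and differed by -0.02 ± 0.11. At so low a level in both groups it is not taken as a measure of the transcript. With the mean of all 3 probe sets INHBA was 0.79 higher and still called.

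LDLRAD4 encodes a membrane protein that binds SMAD2 and SMAD3 and keeps them from the receptor. Its main probe set (209574_s_at) read 6.83, 6.82 and 6.96 in DMSO and 7.56, 7.42 and 7.67 with cortistatin A. The lowest treated array was 0.47 above the highest control. The difference was 0.68 ± 0.078 (n = 3 per group), the 17th highest of all genes.

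All 4 LDLRAD4 probe sets were bright, that is, on average above the median probe set, and 3 of them were higher with the drug. 209573_s_at read 5.35 in each of the 3 DMSO arrays and 5.85, 5.86 and 5.70 with cortistatin A, a difference of 0.45 ± 0.067. 233138_at read 3.76, 3.93 and 3.81 in DMSO and 4.16, 4.13 and 4.22 with the drug, a difference of 0.34 ± 0.070. In both the groups stood apart. The exception was 207996_s_at, with 5.88, 5.57 and 5.64 in DMSO and 5.54, 5.43 and 5.73 with the drug. There the groups overlapped and the difference was -0.13 ± 0.11. With the mean of the 4 probe sets LDLRAD4 was 0.34 higher and not called, and likewise 0.34 and not called without the _s_at and _x_at types, which can match more than 1 transcript and which 3 of its 4 probe sets are. Whether the probe sets read different transcripts was not tested.

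**Figure D1:**
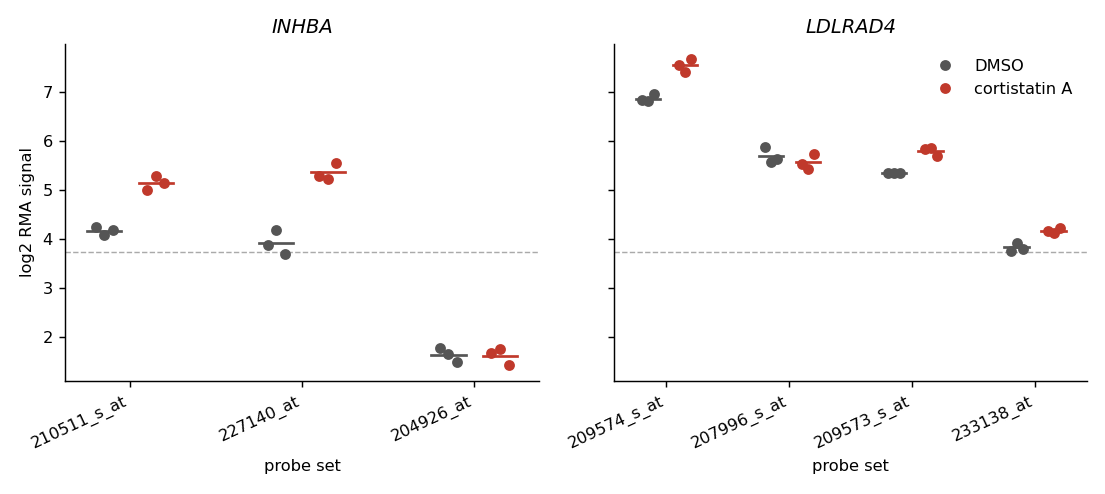
Log2 RMA signal (y axis) of every INHBA (left) and LDLRAD4 (right) probe set (x axis), with 1 point per array, grey for DMSO and red for cortistatin A, short lines at the group means and a dashed line at the median of all probe sets (3.74). The grey and red points separate for 210511_s_at and 227140_at of INHBA and for 209574_s_at, 209573_s_at and 233138_at of LDLRAD4, while 204926_at lies at 1.65 in DMSO and 207996_s_at overlaps between the groups.

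Neither call held with 1 array fewer. Without each of the 6 arrays in turn INHBA was 0.89 to 1.04 higher and LDLRAD4 0.62 to 0.74 higher, and neither was called in any of these fits, which called 0 to 4 genes in all. As the groups did not overlap, leaving out an array could not turn the sign. Control probe sets at both ends of beta-actin show how far the labelled RNA reaches along the transcript. Their 3′ signal exceeded the 5′ signal by 1.77, 1.69 and 1.79 in DMSO and 1.88, 1.89 and 2.08 with cortistatin A. All treated arrays were above the controls (exact permutation test, two-sided, p = 0.1, which is the lowest value possible with 3 and 3 arrays). The mean over all 22 control transcripts did overlap, at 0.65 to 0.75 in DMSO and 0.72 to 0.77 with the drug (exact permutation p = 0.4). These include ribosomal and bacterial spike-in controls. The mean of the 3 human mRNA controls alone did not overlap, at 2.76 to 2.78 in DMSO and 2.81 to 2.92 with the drug (exact permutation p = 0.1). Taken singly, GAPDH and ISGF3A overlapped (exact permutation p = 0.3 and 0.7), so among these 3 only beta-actin stood apart. Over all 22 controls 3 stood apart. Beside beta-actin these were the bacterial spike-ins DapX (mean 3.36 in DMSO, 3.52 with the drug) and ThrX (2.24 and 2.42). With the beta-actin value as a covariate INHBA was 0.90 ± 0.16 and LDLRAD4 0.50 ± 0.11 higher, and with the mean over all 22 controls 1.04 ± 0.098 and 0.69 ± 0.099. Limma called 0 genes in either of these fits. An unadjusted p under 0.05 was reached by 1768 and 1960 genes, against 2499 without a covariate. Some genes pass this level even where nothing differs.

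Among the ligands, TGFB1, the TGF-beta isoform of blood cells, read 6.51, 6.42 and 6.36 in DMSO and 6.28, 6.32 and 6.40 with cortistatin A. The groups overlapped and the difference was -0.10 ± 0.061, or -0.058 without DMSO replicate 1. Its other probe set, with a mean of 4.21, was at 0.05 ± 0.060. So the activin chain and TGFB1 stood at 0.97 and -0.10 in the same arrays, and the difference between these 2 values was not tested.

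The type I receptor TGFBR1, the kinase that phosphorylates SMAD2 and SMAD3, read 9.40, 9.48 and 9.52 in DMSO and 9.81, 9.79 and 9.88 with the drug. The groups were 0.27 apart, the difference was 0.36 ± 0.056 (1.29-fold), and the gene missed the threshold. It was called with dim genes left out, with a further quantile normalization (0.35) and with trend and robust variances. Its 2 other probe sets were bright and overlapped between the groups, at -0.23 ± 0.13 (236561_at) and 0.20 ± 0.14 (206943_at), and the sign of the gene turns when the _s_at type is left out. The type II receptor TGFBR2, which binds the ligand first, read 7.44, 7.44 and 7.55 in DMSO and 7.47, 7.47 and 7.45 with the drug. These 6 values span 0.11, and the difference was -0.01 ± 0.052.

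SMAD3, the signal transducer shared by TGF-beta and activin, read 5.79, 5.80 and 6.06 in DMSO and 6.03, 6.26 and 6.25 with cortistatin A. The third DMSO array lay just above the lowest treated one, and the difference was 0.30 ± 0.10. All 4 SMAD3 probe sets had positive differences, from 0.08 to 0.32, and for 205398_s_at (0.32 ± 0.10) the groups stood apart, with 5.46, 5.41 and 5.26 against 5.67, 5.88 and 5.54. SMAD3 was not called with any of its 18 alternative settings, in which it lay between 0.13 and 0.39.

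Of the inhibitors besides LDLRAD4, 0 were called. SMAD7, which blocks the type I receptor and recruits ubiquitin ligases to it, read 5.04, 4.74 and 4.98 in DMSO and 5.30, 5.10 and 5.06 with the drug. The groups were separated by 0.02 only, and the difference was 0.24 ± 0.10. Leaving out DMSO replicate 2 lowered it to 0.15 and leaving out the first treated array to 0.16, and it reached 0.30 at most with 1 array fewer. SKI, a corepressor that binds SMAD complexes on DNA, read 8.66, 8.55 and 8.60 in DMSO and 8.74, 8.79 and 8.73 with the drug, a small difference of 0.15 ± 0.052 without overlap. Its 2 other probe sets overlapped, at 0.09 and 0.12.

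SKIL, the relative of SKI known as SnoN, read 6.98, 7.16 and 7.21 in DMSO and 7.30, 7.18 and 7.32 with the drug. The groups overlapped, and the difference was 0.15 ± 0.077, or 0.08 without DMSO replicate 1. Its 4 other probe sets were dim and lay between -0.19 and 0.29. PMEPA1, the paralogue of LDLRAD4 with the same mode of action on SMADs, read 4.82, 4.89 and 4.71 in DMSO and 4.61, 4.49 and 4.75 with the drug, a difference of -0.19 ± 0.084 with overlap. Its probe sets disagreed in sign. 217875_s_at read 4.0, 4.03 and 4.09 against 4.16, 4.11 and 4.33 (0.17 ± 0.078), and the dim 222450_at was at -0.21. The feedback genes thus spread from -0.19 for PMEPA1 to 0.68 for LDLRAD4, and whether these 2 differ was not tested.

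**Figure D2:**
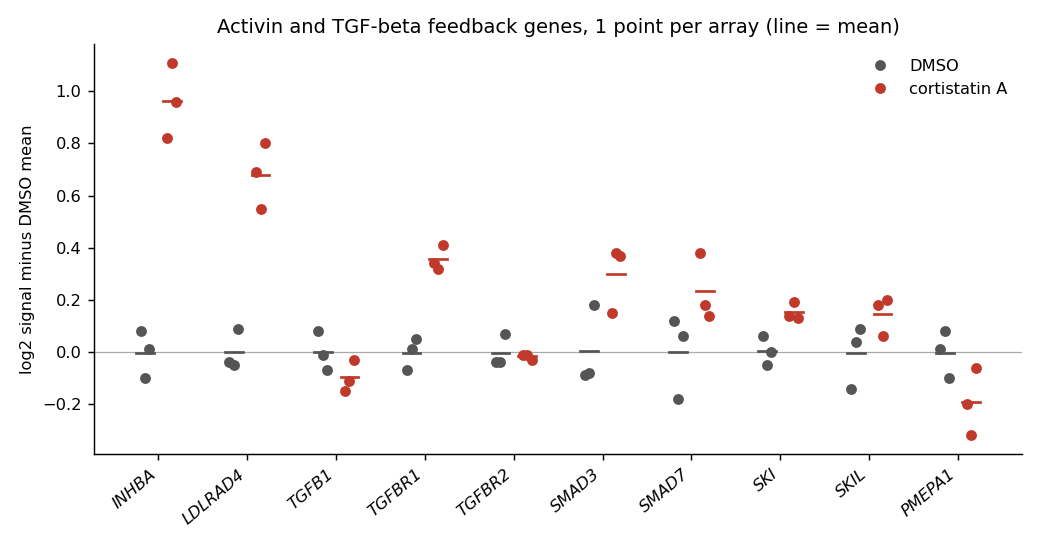
Log2 signal of the main probe set of each of the 10 genes (x axis) on each array, minus the mean of the DMSO arrays of that gene (y axis), grey for DMSO and red for cortistatin A, with lines at the group means. The red points stand clear of the grey ones for INHBA (mean 0.97), LDLRAD4 (0.68) and TGFBR1 (0.36), narrowly so for SMAD7 (0.24) and SKI (0.15), and overlap for the other 5 genes.

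Over all 30 probe sets of the 10 genes, 22 were bright and 8 dim. Of the bright ones 17 had a positive and 5 a negative difference, and the groups stood apart in 10 of the 22, against 22.7% of all bright probe sets. The dim ones lay between -0.21 and 0.29, and the groups stood apart in 3 of the 8, against 10.3% of all dim probe sets. Probe sets of the same gene share the transcript and the arrays, so these counts are not independent.

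**Figure D3:**
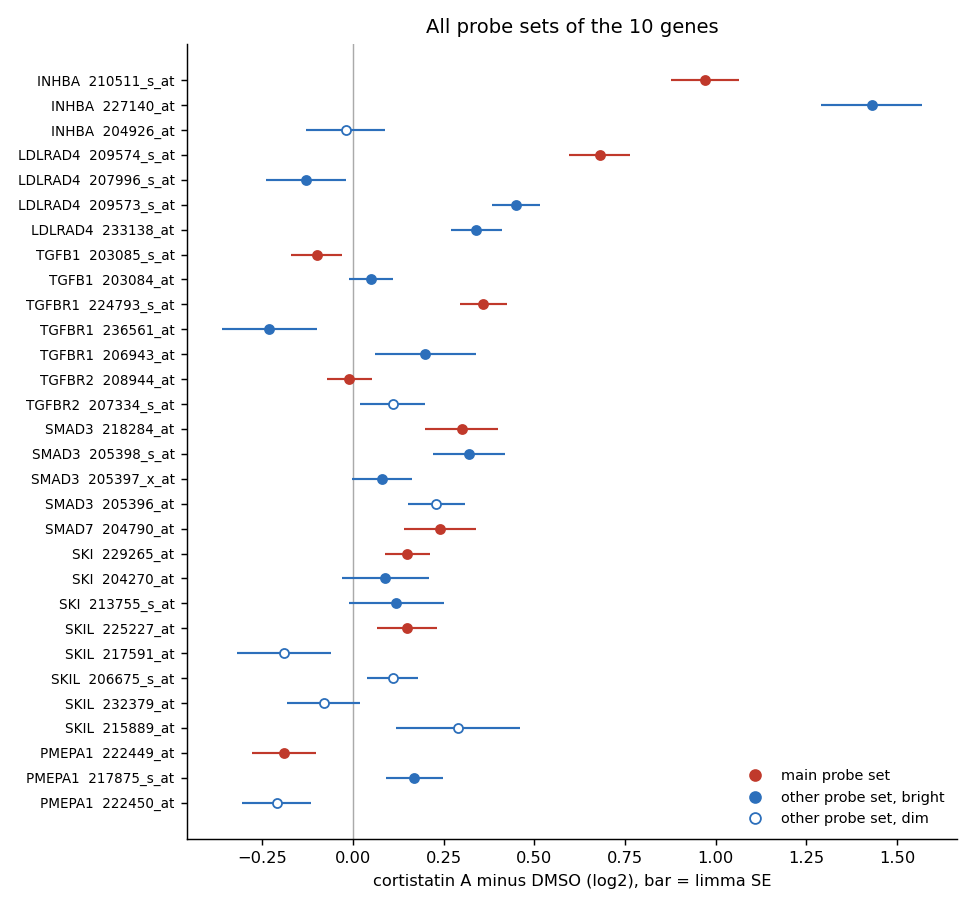
Difference of cortistatin A minus DMSO (x axis, log2) for each of the 30 probe sets (y axis, by gene), with bars for the limma SE of the fit over all probe sets, red for the main probe set, blue for others and open symbols for dim ones. The probe sets of INHBA reach 1.43 and those of LDLRAD4 0.68, and LDLRAD4, TGFB1, TGFBR1, TGFBR2, SKIL, PMEPA1 and INHBA each have values on both sides of 0.

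The rest of the pathway was read from 6 lists by role, with 81 further genes of which 78 were measured and 57 were bright. Limma called 3 of the 78 higher and 0 lower (3.85%, against 0.582% of all genes), and all 3 are in the list of target genes, where BHLHE40, ID2 and MYC were already known to be higher when the list was drawn up. The median difference of the 78 was 0.01, with 43 above and 35 below 0. The groups did not overlap for 23 of them, 11 higher and 12 lower. The share over all genes was 19.4% (10.2% higher and 9.22% lower), and over bright genes 25.0%. The genes named here were picked in each list by a rule on p-values, and the activin receptors and FST for their role.

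No other ligand was called among 15 measured (median 0.07). The closest were BMP2, a bone morphogenetic protein, with 4.48, 4.66 and 4.35 against 4.68, 4.88 and 5.0 (0.36 ± 0.11, limma adjusted p = 0.258), and the stress cytokine GDF15 at 0.34 ± 0.084 (limma adjusted p = 0.184). Among 15 ligand traps and latency genes 0 were called (median 0.08). NRROS, which holds latent TGF-beta on myeloid cells, was at 0.16 ± 0.060, and the BMP antagonist NOG, which was dim, at 0.25. The activin trap FST read 4.71 to 4.73 in DMSO and 4.77 to 4.86 with the drug, a difference of 0.08 ± 0.049.

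Of 11 further receptors 0 were called, and their median was -0.06. The activin type I receptor ACVR1B was bright and at -0.14 ± 0.059, with a second bright probe set that overlapped at 0.05 ± 0.065. ACVR1C was dim. Of the type II receptors that bind activin, ACVR2B was at -0.15 ± 0.076 and ACVR2A at 0.22 ± 0.085, the latter with a dim second probe set at -0.31. The BMP type I receptor ACVR1 read 5.0, 5.10 and 5.0 in DMSO and 4.66, 4.44 and 4.79 with the drug (-0.40 ± 0.093, limma adjusted p = 0.171, with alternatives from 0.0422 to 0.477). The bright receptors ACVR1B, ACVR2A and ACVR2B thus lay between -0.15 and 0.22 in their main probe sets, without a call, in the arrays where INHBA was 0.97 higher.

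Of 10 SMADs and cofactors 0 were called (median -0.01). The acetyltransferase EP300, a SMAD coactivator, read 7.67, 7.64 and 7.71 in DMSO and 7.44, 7.41 and 7.46 with the drug (-0.23 ± 0.048, limma adjusted p = 0.131, with alternatives from 0.00954 to 0.498), and its other bright probe set was at -0.20. TRIM33, which binds SMAD2 and SMAD3, was at -0.20 ± 0.056. Of 11 further inhibitors 0 were called, 8 of them below 0 (median -0.08). The receptor ubiquitin ligase SMURF1 read 5.04, 4.99 and 5.01 against 4.80, 4.75 and 4.75 (-0.25 ± 0.047, limma adjusted p = 0.105, with alternatives from 0.0291 to 0.727), but its 2 other bright probe sets overlapped between the groups. The inhibitory SMAD6 was at -0.26 ± 0.091, opposite in sign to SMAD7 at 0.24, while its 2 other bright probe sets were at 0.21 and 0.08.

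Of 16 measured genes known as targets of TGF-beta or activin in other cells, 3 were called higher and 0 lower (18.8%, against 0.582% of all genes). These 3 were already known to be higher when the list was drawn up, so the share is no result about the list. The differences of the 16 genes lay above 0 for 8 and below 0 for 8, with a median of -0.07. The helix-loop-helix repressor BHLHE40 was 1.21 ± 0.067 higher (limma adjusted p = 0.00433, with alternatives from 8.71e-08 to 0.44). Its other bright probe set, 201169_s_at, overlapped between the groups at 0.06 ± 0.11, and with probe sets averaged the gene was 0.63 higher and still called. The inhibitor of differentiation ID2 was 0.73 ± 0.062 higher (limma adjusted p = 0.0159, range 4.82e-07 to 0.44), and its other probe set was at 0.60 ± 0.12 without overlap. MYC, which TGF-beta represses in epithelial cells, was 0.39 ± 0.049 higher (limma adjusted p = 0.0332, range 1.65e-06 to 0.454), with 10.76, 10.69 and 10.77 in DMSO and 11.12, 11.15 and 11.13 with the drug. In the main probe set of each of these genes all 3 treated arrays exceeded all 3 controls.

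Of the targets that were not called, the death gene BCL2L11 read 7.49, 7.34 and 7.59 in DMSO and 7.93, 7.95 and 7.86 with the drug (0.44 ± 0.074, limma adjusted p = 0.0764, with alternatives from 0.00049 to 0.515). Of its other bright probe sets, 1558143_a_at (0.63 ± 0.071), 222343_at (0.67 ± 0.076) and 1553096_s_at (0.27 ± 0.066) had groups that stood apart. In 1555372_at (0.21 ± 0.16) and 1553088_a_at (-0.09 ± 0.080) the groups overlapped. By its main probe set BCL2L11 was called in 4 of its 18 alternatives. The cell-cycle inhibitor CDKN1A, which TGF-beta induces in many cells, lay the other way, with 6.92, 6.84 and 6.89 against 6.48, 6.57 and 6.58 (-0.34 ± 0.054, limma adjusted p = 0.0679, range 0.00329 to 0.44). The calls of ID2 and MYC ended whichever of the 6 arrays was left out, and that of BHLHE40 without replicate 1 or 2 of DMSO and without replicate 1 or 3 of cortistatin A, with differences of 0.69 to 0.76, 0.37 to 0.41 and 1.17 to 1.26 over the 6 fits. All 3 calls also ended with either control signal as a covariate.

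**Figure D4:**
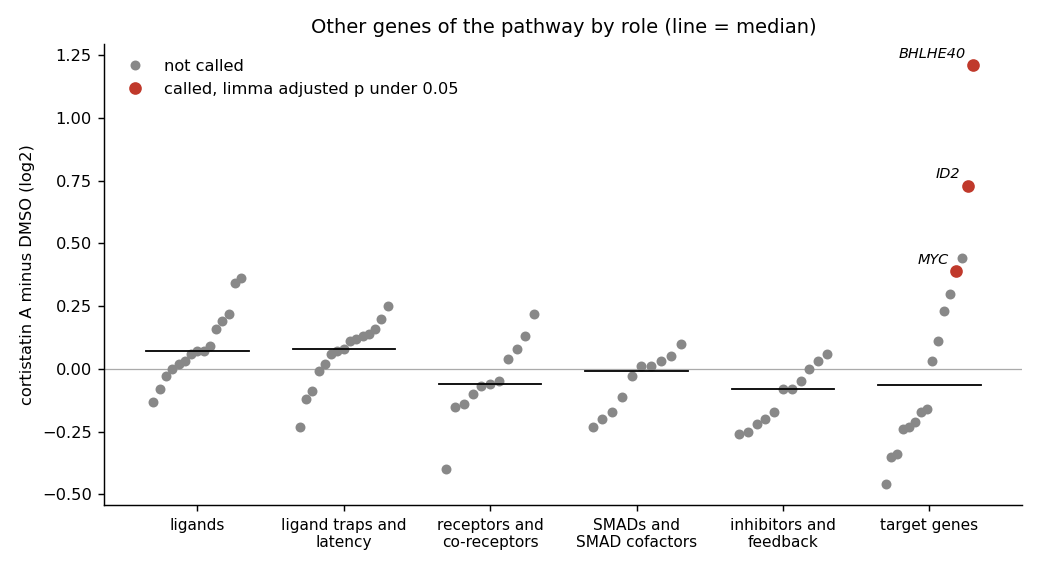
Difference of cortistatin A minus DMSO (y axis, log2) for the 78 other pathway genes measured, 1 point per gene, in 6 lists by role (x axis), with red for genes called by limma and lines at the list medians. All lists but the target genes lie between -0.40 and 0.36, and BHLHE40 (1.21), ID2 (0.73) and MYC (0.39) are the points called.

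Genes whose levels ran most like those of INHBA over the 6 arrays, among 455 bright genes with a difference of at least 0.3 in size, were the stem cell factor receptor KIT (Pearson r = 0.9982), RAB33A (0.9969), BBX (0.9962), MGC12916 (0.9915) and URB2 (0.9908). For LDLRAD4 they were GATA2 (0.9986), CXCR4 (0.9984), TRIM16 (0.9961), MINCR (0.9946) and IL1RAP (0.9938). INHBA and LDLRAD4 themselves had r = 0.935. These are 6 points in 2 groups, and the 455 genes were picked by the size of their difference between the groups. So r mostly reflects that difference, and the genes named are not shown to be particular partners.

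The arrays as a whole were alike, with r across genes from 0.9975 to 0.9979 within groups and 0.9969 to 0.9974 between them. All 7 measured markers of the myeloid leukaemia line were bright, with a mean level of 7.80 to 7.85 in DMSO and 7.88 to 7.91 with the drug, which did not overlap, and 0 were called. Single markers did not move alike. CSF2RA was at 0.36 and MEIS1 at 0.18, FLT3 at -0.20, all 3 without overlap, and the groups overlapped for the others, with a list median of 0.02. The part of these differences in the results above was not tested. The mean levels of marker lists for T, B, erythroid, stromal and epithelial cells lay between 2.95 and 4.25 on all arrays and overlapped between the groups, with 8 of their 18 measured genes bright and 0 called. The transcripts of the drug targets CDK8 (-0.05 ± 0.070), CDK19 (-0.22 ± 0.066) and their cyclin CCNC (0.03 ± 0.046) were not called. For CDK19 all treated arrays lay below the controls, and for CDK8 and CCNC the groups overlapped. In bulk RNA a change per cell and a change in the share of cells that express a gene cannot be told apart.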

How the data were processed

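RNA of 6 samples was measured on Affymetrix Human U133 Plus arrays. The deposited values are log2 signals per probe set, made by the authors with RMA and the affy package, per the submitters' processing notes. The log2 scale was taken from the values (0.81 to 13.84) and from RMA. RMA as usually run makes array distributions alike, so a shift of all transcripts would not be seen. RNA was isolated with a column kit or TRIzol, per the labels' protocols, and the sources used here do not pair arrays with either method.

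Of 54675 probe sets 62 were controls and 41091 named 1 gene, which gave 19775 genes after symbols were updated through the RefSeq table (41037 matched). The brightest probe set stood for a gene. Groups were compared with limma 3.58.1 in R 4.3.3 (lmFit, eBayes, two-sided, all 6 arrays, no filter, 4 residual and 2.68 prior degrees of freedom). Errors of main probe sets come from the fit over genes and those of other probe sets from a fit over 54613 probe sets. The number of arrays limits the precision. In 10 simulations of this comparison with 19775 genes, 11.5% of 1.2-fold, 69.3% of 1.5-fold and 92.4% of 2-fold changes were recovered among bright genes. The simulations changed 200 genes and drew independent normal noise for each gene with its variance within groups. Noise shared by the genes of an array, or a larger spread between separate cultures, was not simulated, so real rates may be lower.

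The members, lists and tests were chosen with earlier results of these data known. Named were all members, in each list the called genes and the 2 others with the smallest p, CDK8, CDK19 and CCNC, and the 5 genes most like INHBA and LDLRAD4. The activin receptors and FST were named for their role. Alternatives were the replicate block, dim genes left out, mean of probe sets, no _x_at or _s_at types, a further quantile normalization, housekeeping centring, trend and robust variances, other thresholds, all probe sets, the 3′ to 5′ index, each array left out and, added after seeing the data, the beta-actin covariate.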

Additional observations from a re-analysis of the deposited data

How the results depend on the processing

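The call counts moved with most choices. With the replicate number as a block limma called 0 genes, 0 of the 10 members and 0 of the other pathway genes. An unadjusted p under 0.05 was then reached by 2243 genes, against 2499 without the block. Deviations from the group means correlated at -0.0852, 0.0117 and -0.0113 between same-numbered arrays, and at -0.0476 to 0.0648 between the others. With 3 arrays per group these values cannot show whether same-numbered arrays shared a batch. Both covariates, the 3′ to 5′ index and the beta-actin value, likewise gave 0, 0 and 0. Against 115 genes, 321 were called without dim genes, 76 with probe sets averaged, 54 without the _x_at and _s_at types, 762 with trend and robust variances, 28 as probe sets and 260 at an adjusted p under 0.1. Leaving out 1 array gave 0 to 4 genes, 0 members and 0 to 1 other pathway genes. Of the 10 members 1 was called, INHBA, with probe sets averaged, without the _x_at and _s_at types and with all probe sets tested. Of the other pathway genes, against 3, there were 7 without dim genes, 9 with trend and robust variances and 5 at an adjusted p under 0.1. Without the _x_at and _s_at types 0 were called, but only 61 of the 78 could then be measured, and BHLHE40, ID2 and MYC were not among them.

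Signs turned for TGFB1 (0.051) and TGFBR1 (-0.23) without the _x_at and _s_at types, and for TGFBR2 with probe sets averaged (0.05), with housekeeping centring (0.048) and without DMSO replicate 3 (0.023, range over the arrays left out -0.031 to 0.023). ACVR2A turned with probe sets averaged (-0.048) and without those types (-0.31), as did SMAD6 (0.006 and 0.08). INHBA kept its sign in all 18 alternatives (0.79 to 1.43) and its call in 9. LDLRAD4 kept its sign in 18 (0.34 to 0.74) and its call in 6. Many of these settings could not turn the sign. The block, dim genes left out, trend and robust variances, all probe sets and the other thresholds leave the difference as it was. Nor could leaving out an array turn it, as the groups did not overlap. The other thresholds also could not end either call. Where a setting ended a call, the cause was not tested. Leaving out an array leaves fewer samples, and the block and the covariates leave fewer residual degrees of freedom than the main fit. Values of dim probe sets are printed as readings and are not taken as a measure of the transcript.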
